A study of Mus musculus with 24 samples.

Results

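The imprinted growth genes described here were 10 genes looked up by symbol, out of 41710 genes in each of the CPM tables, and all 10 were found in both. They were 6 genes that are usually expressed from the paternal copy (Mest, Igf2, Peg3, Dlk1, Plagl1 and Ndn) and 4 that are usually expressed from the maternal copy (H19, Igf2r, Meg3 and Grb10). Their levels came from 24 poly-A RNA sequencing libraries of murine embryonic fibroblasts (MEFs), 12 of primary and 12 of immortalized cells, and in each of these sets the WT, MlxKO, MycKO and DKO (Myc and Mlx both lost) groups had 3 libraries. The comparison asks how these genes respond when Myc, Mlx or both transcription factors are removed, before and after immortalization. CPM stands for the reads of a gene after the authors scaled each library to about the same total.

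All cells came from embryos of about mid-to-late gestation whose cells were pooled by strain. Each strain was homozygous for floxed alleles of Myc, Mlx or both and carried 2 copies of a CreER fusion under the ubiquitous ROSA26 promoter, so that the WT cells carried floxed alleles and CreER as well. Excision was started with 500 nM 4-hydroxytamoxifen (4OHT), and WT cells received the ethanol vehicle. Immortalized cells had been transduced with a lentivirus for SV40 T-antigen and selected in blasticidin before excision. The paper reports that most immortalized MycKO cells became tetraploid or pseudo-tetraploid, while DKO cells stayed euploid. It describes the primary MycKO and DKO cells that were sequenced as growth-arrested. The part of ploidy and growth arrest in the results below was not tested. WT cells were unexcised cells of these strains, and the labels do not say of which. Because each knockout was made in the embryos of its own strain, differences between embryo pools and effects of the knockout cannot be told apart. In comparisons with WT, effects of 4OHT treatment and of Cre activity cannot be told apart from those of the knockout either. The study calls the libraries of a group biological replicates, but no source used here says that they came from separate cultures or embryo pools, so p-values measure only the spread between these libraries, which may be technical.

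Imprinted genes are transcribed mainly or only from the copy inherited from 1 parent, under control regions whose DNA methylation is set in the germ line. Many of them regulate growth before birth, and as a group they are abundant in embryonic mesenchyme and decline after birth. Igf2 encodes a fetal insulin-like growth factor, Igf2r the receptor that removes it, and Grb10 an adaptor that dampens signalling from the insulin and IGF1 receptors. H19 and Meg3 are long noncoding RNAs. Dlk1 encodes a membrane protein of the Delta family that restrains fat cell differentiation, Plagl1 and Peg3 encode zinc finger proteins, Ndn encodes necdin, a growth-restraining protein of the MAGE family, and Mest encodes a protein with a hydrolase fold. Sequencing without allele information adds both parental copies, so that the levels below say nothing of which copy was read.

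The 10 genes lie on 6 chromosomes of GRCm39 (GENCODE M39). H19 (chromosome 7, 142129262 to 142133957, minus strand, a noncoding RNA of 6 exons) and Igf2 (142204503 to 142220694, minus strand) are 70.5 kb apart. Dlk1 (chromosome 12, 109418749 to 109429262, plus strand) and Meg3 (109506877 to 109538165, plus strand) are 77.6 kb apart. Ndn (61995473 to 62000010, plus strand, a gene with 1 exon) and Peg3 (6706882 to 6733468, minus strand) are elsewhere on chromosome 7. Mest is on chromosome 6 (30723546 to 30752058, plus strand), Plagl1 on chromosome 10 (12936248 to 13007438, plus strand), Grb10 on chromosome 11 (11880498 to 11988683, minus strand) and Igf2r on chromosome 17 (12901293 to 12988614, minus strand). Of the exon bases of Mest, 47.7% are shared with Copg2 on the opposite strand, and 58.4% of those of Igf2 with the readthrough model Gm49394, which reached at most 0.5 CPM in any library. The strand setting of the counting is not given in the sources used here, so reads of Mest and Copg2 may not have been kept fully apart.

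Myc with its partner Max, and Mlx with its own partners, bind the E-box CACGTG. In windows from 250 bases before to 50 bases after the start of each gene's canonical transcript, Plagl1 held 1 E-box and Igf2r held 2, and the other 8 genes held none. An E-box was present in 7.08% of 31247 such windows and in 9.98% of those of the 13077 genes tested in primary cells. E-boxes read the same on both strands. The longer element of 2 E-boxes separated by 5 bases, a form of the carbohydrate response element, occurred in 0 of the 31247 windows. Shown here, 5′ to 3′ on the strand of the gene and with E-boxes in capitals, are the 100 bases before and the 30 bases after the start for both genes with the motif and for Mest and Igf2, which changed most often among the 10 and hold none. In Plagl1 the E-box spans bases 15 to 10 before the start, and in Igf2r the E-boxes span bases 27 to 22 before and bases 15 to 20 after it.
Plagl1, chr10:12966309-12966438, plus strand: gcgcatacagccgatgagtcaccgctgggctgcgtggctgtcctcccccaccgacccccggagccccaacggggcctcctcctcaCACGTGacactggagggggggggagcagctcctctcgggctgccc
Igf2r, chr17:12988585-12988714, minus strand: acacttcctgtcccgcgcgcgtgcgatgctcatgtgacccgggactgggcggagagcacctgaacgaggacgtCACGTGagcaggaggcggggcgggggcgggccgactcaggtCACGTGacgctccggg
Mest, chr6:30737944-30738073, plus strand: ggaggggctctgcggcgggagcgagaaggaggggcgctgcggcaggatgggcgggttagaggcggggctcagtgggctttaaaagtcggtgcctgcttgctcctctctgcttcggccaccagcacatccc
Igf2, chr7:142211204-142211333, minus strand: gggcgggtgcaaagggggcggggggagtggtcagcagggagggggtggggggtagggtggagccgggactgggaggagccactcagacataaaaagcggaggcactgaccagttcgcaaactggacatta

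Libraries held between 15986856 and 20966163 reads on genes, so that 3 reads, used as the floor, were worth between 0.145 and 0.196 CPM (counting error only). All 10 fibroblast markers reached 1 CPM in every group of both tables. Markers of liver and germ cells summed to at most 0.264 and 1.24 CPM in any library, with Ttr and Dppa3 at 0 in every group. In primary cells the 10 macrophage markers summed to between 309 and 607 CPM in WT, 337 and 416 in MlxKO, 53.0 and 79.5 in MycKO, and 105 and 243 in DKO libraries, and they were at most 5.8 CPM in any immortalized library, with Adgre1, Tyrobp, C1qa and C1qb at 0. In these bulk samples, fewer cells of a type and less RNA per cell cannot be told apart. Myc was lower in every MycKO and DKO library (4.25 to 26.8 CPM) than in any WT library (39.9 to 177 CPM), and Mlx was lower in every MlxKO and DKO library than in any WT library of the same table. Immortalized WT library 4 stood apart. Its r with WT libraries 2 and 3 (log2(CPM + 1) across genes) was 0.950 and 0.943, against 0.983 to 0.996 within the other immortalized groups and between those 2 libraries. Its Myc was 177 against 48.1 and 39.9 CPM, its Y-linked Ddx3y 106 against 6.56 and 4.61 CPM, and its Xist 550 against 2114 and 1574 CPM. Results against immortalized WT are therefore given with and without it, the latter from a fit of the other 11 libraries. The immortalized knockouts differed in Ddx3y too, with 42.9 to 56.8 CPM in MlxKO, 19.1 to 20.8 in MycKO and 1.25 to 2.04 in DKO libraries. In primary cells the DKO libraries differed from the others in the same sex-linked genes, with Ddx3y between 10.1 and 10.9 against 50.5 to 84.8 CPM and Xist between 529 and 545 against 102 to 186 CPM, and the part of these differences in the imprinted genes was not tested in either table.

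Per kilobase of canonical transcript, Meg3 was the most abundant of the 10 in primary cells, with a median of 330 CPM per kb over 12 libraries, followed by H19 (266), Igf2 (176) and Grb10 (108). Igf2r (49.9) and Mest (40.1) came next, and Ndn (16.9), Plagl1 (15.6), Peg3 (15) and Dlk1 (14.8) were lowest. Neighbours in this order were not always apart, since the ranges of Meg3 (173 to 574) and H19 (237 to 335), of Igf2 (117 to 206) and Grb10 (86.6 to 131), of Igf2r (41.2 to 56.0) and Mest (23.3 to 94.8), and of the last 4 genes overlapped. H19 and Igf2 did not overlap on this scale. In immortalized cells the order was different, with Grb10 (98.1) and Mest (96.3) at the top and Peg3 (1.2) at the bottom. Both orders depend on the length used, because CPM count the reads of a whole gene. The canonical transcript holds 1656 of 19306 exon bases for Meg3 and 1262 of 8070 for Mest, against 2213 of 2848 for H19. Per kb of all exon bases Meg3 and Mest would therefore rank lower. Which transcripts the reads came from was not tested.

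Of the 10 genes, 6 were higher in every primary library than in any immortalized library. The tables were scaled separately, so these levels are set side by side without a test. Igf2 spanned 433 to 765 CPM in primary and 22.3 to 130 CPM in immortalized cells, Meg3 286 to 951 and 12.4 to 152, and Peg3 109 to 154 and 2.58 to 29.7. H19 (525 to 741 and 84.0 to 194 CPM), Dlk1 (49.8 to 74.2 and 0.331 to 31.7 CPM) and Ndn (43.6 to 84.3 and 4.39 to 26.6 CPM) were separated in the same way. Mest, Plagl1, Igf2r and Grb10 overlapped, and none of the 10 was higher in every immortalized library. Among the 13579 genes tested in either table, 5.44% were higher in every primary library and 9.72% lower, and among 42 other imprinted genes the shares were 19.05% and 4.76%. For each of the 10 genes the fold range over the 12 libraries was also wider after immortalization, with immortalized WT library 4 included. The same range was not computed for all genes. Their median absolute log2 difference from WT was 0.12, 0.23 and 0.27 in primary MlxKO, MycKO and DKO cells. In immortalized cells it was 0.37, 0.42 and 0.27 in the same order. Between the lowest and the highest library, Igf2 differed 1.77-fold in primary and 5.85-fold in immortalized cells, Peg3 1.42-fold and 11.5-fold, Mest 4.08-fold and 55.5-fold, and Dlk1 1.49-fold and 95.6-fold, while Grb10 differed 1.51-fold and 1.92-fold.

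**Figure D1:**
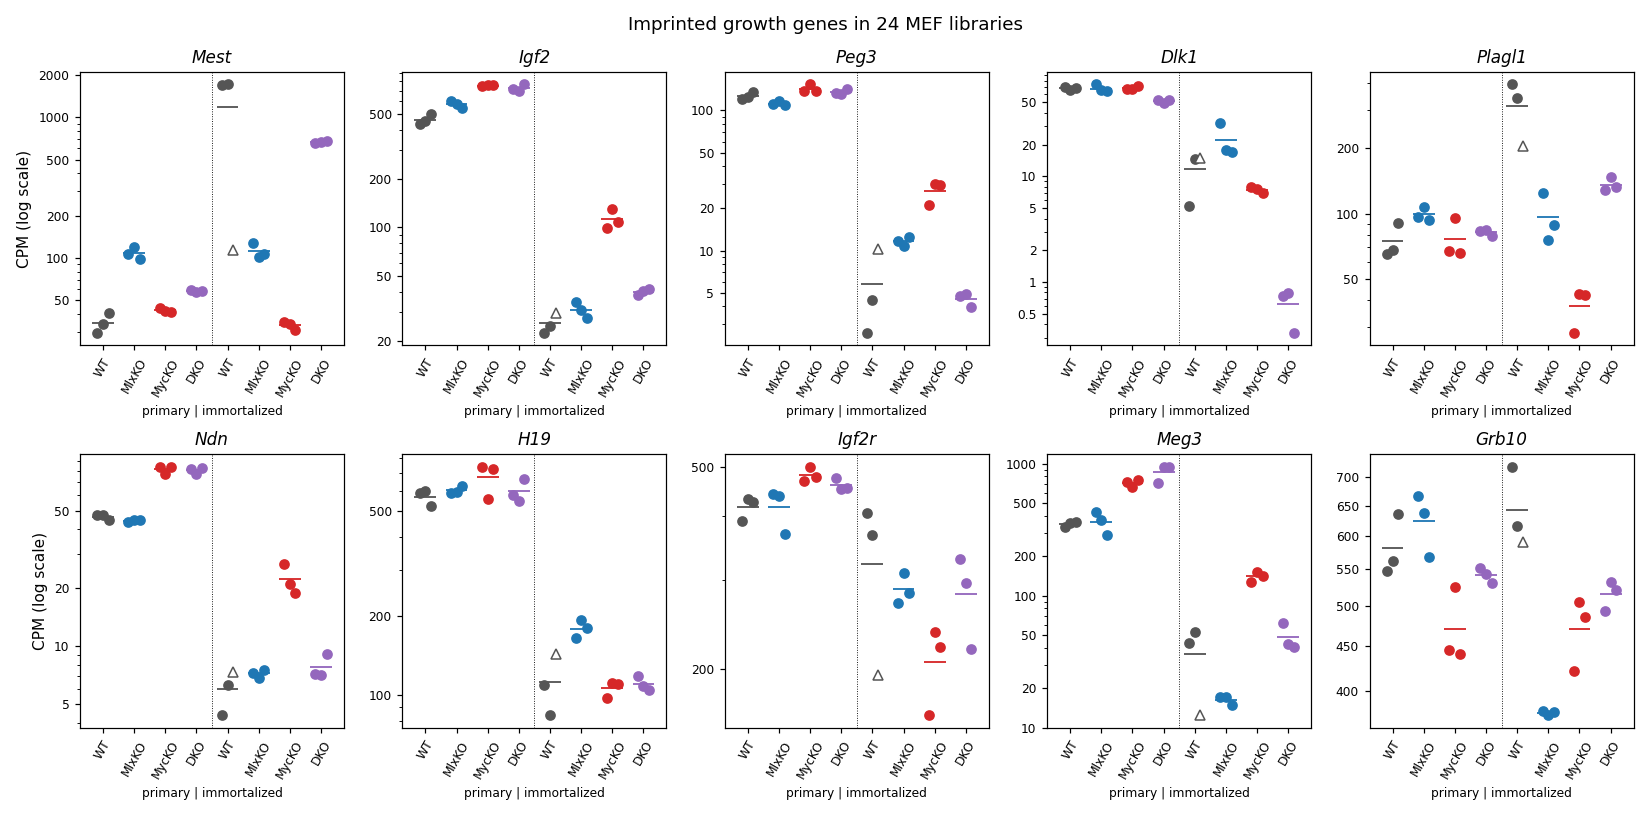
CPM of the 10 imprinted genes (vertical axes, logarithmic) in each library, with primary cells to the left and immortalized cells to the right of the dotted line in every panel. Points are libraries, horizontal lines are group means of 3 libraries, and the open triangle is immortalized WT library 4. Igf2, Peg3, Dlk1, Ndn, H19 and Meg3 are higher in all primary than in all immortalized libraries, and Mest ranges from 30.8 to 1712 CPM in immortalized cells.

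In primary MlxKO cells, Mest rose, Igf2 rose slightly, and the other 8 genes did not pass the test. Mest was 29.3, 33.7 and 40.4 CPM in the WT libraries and 107, 120 and 98.9 CPM in the MlxKO libraries. All MlxKO libraries were above all WT libraries, and the log2 fold change of 1.63 (SE 0.10, adjusted p = 2.36e-08, limma with Benjamini-Hochberg adjustment over all genes tested) exceeded in size that of 99.9% of the genes. Igf2 was 433, 455 and 504 CPM in WT and 606, 582 and 544 CPM in MlxKO libraries, again without overlap, with a log2 fold change of 0.32 (SE 0.07, adjusted p = 0.006). Plagl1 was 65.6, 68.0 and 90.7 CPM in WT and 96.9, 108 and 93.5 CPM in MlxKO libraries, a log2 difference of 0.42 (SE 0.13) whose adjusted p was 0.0521, and its adjusted p was between 0.00699 and 0.0379 with scaling by library totals, with only the groups compared, with DESeq2 or without WT library 3. The 4 maternally expressed genes had log2 differences from -0.01 to 0.10. The 2 genes called compare with 8.88% of all genes called in this comparison (3.75% higher and 5.14% lower). The MlxKO and WT libraries did not overlap for 3712 of all 13101 genes tested.

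In primary MycKO cells, Meg3, Ndn and Igf2 rose, with smaller rises of Mest, Igf2r and Peg3 and a fall of Grb10. Meg3 was 334, 358 and 362 CPM in WT and 731, 664 and 748 CPM in MycKO libraries, a log2 fold change of 1.02 (SE 0.12, adjusted p = 5.53e-06). Ndn was 47.6, 47.2 and 44.8 CPM in WT and 83.7, 77.2 and 84.3 CPM in MycKO libraries (log2 fold change 0.80, SE 0.06, adjusted p = 6.69e-08). Igf2 was 743, 753 and 756 CPM in MycKO libraries (log2 fold change 0.70, SE 0.07, adjusted p = 4.44e-07). For each of these 3 genes every MycKO library was above every WT library. The libraries of these groups did not overlap for 6297 of all 13101 genes tested.

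The other rises in MycKO were small. Mest was 44.0, 42.1 and 41.5 CPM (log2 fold change 0.31, adjusted p = 0.0169), Igf2r 469, 501 and 479 against 392, 433 and 427 CPM (0.21, adjusted p = 0.023), and Peg3 139, 154 and 137 against 121, 124 and 135 CPM (0.18, adjusted p = 0.0383). Scaling by library totals, which shifted the median of all genes by -0.10, ended these 3 calls (log2 values of 0.20, 0.11 and 0.08), and so did leaving out WT library 1 (0.20, 0.17 and 0.15). The call of Mest was also lost without MycKO library 9 (0.28), and that of Peg3 without WT library 2 (0.17) or MycKO library 10 (0.13). Grb10, whose product dampens insulin and IGF1 receptor signalling, was 547, 561 and 636 CPM in WT and 445, 525 and 441 CPM in MycKO libraries (log2 fold change -0.31, SE 0.08, adjusted p = 0.00509). H19 was 587, 597 and 525 CPM in WT and 741, 556 and 726 CPM in MycKO libraries, so the groups overlapped (log2 difference 0.23, adjusted p = 0.0655). Without MycKO library 10 the difference was 0.37 (adjusted p = 0.00057). In all, 6 genes rose and 1 fell, against 42.3% of all genes called in this comparison (20.4% higher and 21.9% lower).

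In primary DKO cells the rises of Meg3, Ndn, Igf2 and Mest were present again and Dlk1 fell. Meg3 was 710, 951 and 940 CPM in DKO libraries, all but the lowest of them above every MycKO library, with a log2 fold change against WT of 1.29 (SE 0.12, adjusted p = 3.15e-07). Ndn was 82.1, 77.3 and 82.7 CPM (0.78, SE 0.06, adjusted p = 5.27e-08) and Igf2 714, 700 and 765 CPM (0.65, SE 0.07, adjusted p = 6.17e-07). Mest was 59.4, 57.3 and 58.1 CPM (0.75, SE 0.10, adjusted p = 7.62e-06), above WT and below MlxKO in every library. Dlk1 was 70.2, 66.1 and 68.4 CPM in WT and 52.8, 49.8 and 52.8 CPM in DKO libraries (-0.39, SE 0.07, adjusted p = 0.000197), and in MlxKO and MycKO libraries it ranged from 63.9 to 74.2 CPM. Igf2r, Grb10, Plagl1, Peg3 and H19 did not pass the test. The 5 genes called compare with 49.5% of all genes (24% higher and 25.5% lower), so their share was near the background.

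Set directly against MycKO, DKO cells had more Mest (log2 fold change 0.45, SE 0.10, adjusted p = 0.00283) and less Dlk1 (-0.39, SE 0.07, adjusted p = 0.000586), and the other 8 genes were not called, with 21.5% of all genes called. For Igf2 the difference was -0.05 (95% confidence interval -0.19 to 0.09) and for Ndn -0.02 (-0.15 to 0.12). Without MycKO library 10, H19, Plagl1 and Grb10 also passed (-0.30, 0.30 and 0.29). Against MlxKO, 7 genes were called: Meg3, Ndn, Igf2 and Peg3 were higher in DKO by 1.26, 0.85, 0.33 and 0.27, and Mest, Dlk1 and Grb10 lower by log2 fold changes of -0.88, -0.38 and -0.20. Of all genes, 49.1% were called there. The call of Grb10 (adjusted p = 0.0487) did not hold with edgeR or DESeq2 (adjusted p = 0.075 and 0.069).

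Markers of proliferation and of several cell types moved with the primary groups. Mki67, a proliferation marker, fell from between 175 and 202 CPM in WT to between 124 and 146 CPM in MlxKO, 105 and 140 CPM in MycKO and 87.7 and 97.0 CPM in DKO libraries. The summed fibroblast markers were between 42761 and 46313 CPM in WT, 43836 and 48307 in MlxKO, 55177 and 57580 in MycKO and 57323 and 58321 in DKO libraries, and the macrophage marker sums given above fell in the groups in which Meg3 and Ndn rose, with 10 of 10 macrophage markers lower in MycKO and in DKO and 0 of 10 called in MlxKO. Of the 10 fibroblast markers, 2, 9 and 6 were called higher in MlxKO, MycKO and DKO, and 1, 0 and 2 lower. The 6 epithelial markers summed to between 16.5 and 19.9 CPM in WT, 3.23 and 4.83 in MlxKO, 2.0 and 2.24 in MycKO and 1.95 and 2.76 in DKO libraries, with both of those tested lower in every knockout and Krt5 and Epcam under 1 CPM throughout. Skeletal muscle sums, in which only Des reached 1 CPM, were 76.7 to 85.6, 32.4 to 43.1, 29.4 to 33.8 and 77.5 to 83.5 CPM in the same order. Endothelial sums were 14.1 to 15.5, 3.57 to 4.9, 5.43 to 9.03 and 5.26 to 6.23 CPM. Neural sums were 103 to 121, 97.3 to 106, 150 to 178 and 133 to 139 CPM. Their part in these results was not tested.

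Immortalized WT library 4 differed from WT libraries 2 and 3 in the imprinted genes too. Mest was 1696 and 1712 CPM in libraries 2 and 3 and 115 CPM in library 4, which lay within the range of the MlxKO libraries (101 to 128 CPM). Meg3 was 43.5 and 52.9 CPM in libraries 2 and 3 and 12.4 CPM in library 4, and Peg3 2.58 and 4.44 against 10.2 CPM. Library 4 was below libraries 2 and 3 for 5 of the 10 genes (Mest, Meg3, Igf2r, Plagl1 and Grb10) and above them for the other 5, and for 3 genes the gap exceeded 1 on the log2 scale. For Dlk1 it was library 2 that stood apart, at 5.27 CPM against 14.8 and 15 CPM.

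**Figure D2:**
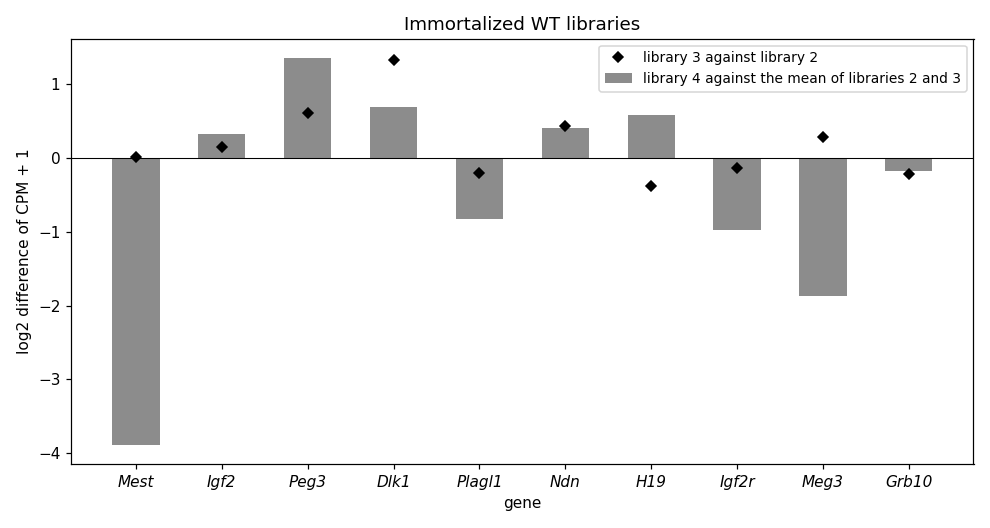
Differences among the 3 immortalized WT libraries on the log2(CPM + 1) scale for each of the 10 genes. Bars give library 4 minus the mean of libraries 2 and 3, and diamonds give library 3 minus library 2. Mest (-3.88) and Meg3 (-1.87) were lower and Peg3 (1.35) higher in library 4 by more than 1.

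In immortalized MycKO cells the genes moved in opposite directions: Igf2, Peg3, Meg3 and Ndn rose, and Mest, Plagl1 and Grb10 fell. Mest was 35.4, 34.1 and 30.8 CPM in MycKO libraries, below every WT library including library 4, with a log2 fold change of -4.34 (SE 0.74, adjusted p = 0.0006) and of -5.63 (SE 0.11, adjusted p = 7.97e-13) without library 4. Plagl1, which encodes a zinc finger factor that is known to regulate other imprinted genes, was 395, 341 and 206 CPM in WT and 28.3, 42.8 and 42.4 CPM in MycKO libraries (-2.99, SE 0.24, adjusted p = 2.07e-06, and -3.27 without library 4). Grb10 was 720, 617 and 591 CPM in WT and 422, 506 and 485 CPM in MycKO libraries (-0.45, SE 0.11, adjusted p = 0.00573, and -0.50 without library 4). These 3 genes were lower in every MycKO library than in any WT library. The summed fibroblast markers were also lower in MlxKO and MycKO libraries than in WT, with 25676 to 33803 CPM in WT, 18604 to 22920 in MlxKO, 18794 to 24535 in MycKO and 26839 to 34696 in DKO libraries, and although the sum was lower, 4 of the 10 markers were called higher and 1 lower in MlxKO and 4 higher and 2 lower in MycKO. Their part in these results was not tested.

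Among the genes that rose in immortalized MycKO cells, Igf2 was 22.3, 24.7 and 29.6 CPM in WT and 98.7, 130 and 108 CPM in MycKO libraries (log2 fold change 2.10, SE 0.14, adjusted p = 3.84e-07). Peg3 was 21.0, 29.7 and 29.4 CPM in MycKO libraries (2.18, SE 0.32, adjusted p = 0.000177) and Meg3 127, 152 and 142 CPM (2.15, SE 0.39, adjusted p = 0.00082). Ndn was 4.39, 6.27 and 7.30 CPM in WT and 26.6, 21.0 and 18.7 CPM in MycKO libraries (1.73, SE 0.19, adjusted p = 1.84e-05). The MycKO libraries were above all WT libraries for all 4 genes, and without library 4 the log2 fold changes of Igf2, Peg3, Meg3 and Ndn were 2.20, 2.63, 1.52 and 1.87. Igf2r was 406, 367 and 195 CPM in WT and 162, 237 and 221 CPM in MycKO libraries (-0.59, adjusted p = 0.068), and it passed the test without library 4 (-0.92, adjusted p = 0.000626). H19 (97.8 to 111 CPM against 84.0 to 143 CPM) and Dlk1 (6.92 to 7.92 CPM against 5.27 to 15 CPM) did not pass with or without library 4. The 7 genes called with all libraries and 8 without library 4 compare with 48% (24.4% higher and 23.5% lower) and 54% of all genes. The MycKO and WT libraries did not overlap for 6576 of all 12880 genes tested.

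In immortalized MlxKO cells Mest, Plagl1 and Grb10 fell, and H19, Peg3 and Dlk1 rose. Plagl1 was 124, 75.6 and 89.0 CPM (log2 fold change -1.67, SE 0.24, adjusted p = 0.000552), and Grb10 was 380, 375 and 379 CPM (-0.76, SE 0.11, adjusted p = 0.000549), all below every WT library. H19 was 109, 84.0 and 143 CPM in WT and 165, 194 and 180 CPM in MlxKO libraries (0.70, SE 0.16, adjusted p = 0.005), the only comparison of a knockout with WT in which it was called. Without library 4 these log2 fold changes were -1.95, -0.82 and 0.90. The MlxKO and WT libraries did not overlap for 6320 of all 12880 genes tested.

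For the other genes the MlxKO result changed with single WT libraries. Mest was 128, 101 and 107 CPM in MlxKO libraries, overlapping WT through library 4 alone (-2.63, SE 0.74, adjusted p = 0.0159). It was -3.92 (SE 0.11, adjusted p = 3.45e-11) without library 4, and -1.99 and -1.98 (adjusted p = 0.0696 and 0.0527) without library 2 or 3. Peg3 was 11.7, 10.7 and 12.5 CPM (1.07, SE 0.32, adjusted p = 0.0194, and 1.51 without library 4), and without library 2 it was 0.69 (adjusted p = 0.0759). Dlk1 was 31.7, 17.8 and 17.0 CPM (0.94, SE 0.33, adjusted p = 0.0412), and it lost the call with edgeR (adjusted p = 0.0545) or without WT library 2 (0.49, adjusted p = 0.156). Meg3 was 17.0, 17.1 and 14.8 CPM, with a log2 difference of -0.88 (adjusted p = 0.0875) with library 4 and -1.51 (adjusted p = 1.05e-05) without it, and edgeR called it with all libraries (-1.14, adjusted p = 0.0328). Igf2 had log2 values of 0.28 (adjusted p = 0.129) and 0.38 (adjusted p = 0.0293) in the same order. Thus 6 genes were called with all libraries, with 38.9% of all genes called (19.1% higher and 19.9% lower), and 8 without library 4, with 46.8%.

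In immortalized DKO cells 3 genes differed from WT with all libraries included, and Dlk1 showed the greatest fall. Dlk1 was 0.739, 0.792 and 0.331 CPM in DKO libraries, above the floor of 3 reads and below every other library, with a log2 fold change of -2.86 (SE 0.33, adjusted p = 0.000197) and of -2.63 without library 4. Since 1 was added to the CPM before taking logs, these values understate the ratio of a gene this low. Plagl1 was 129, 147 and 132 CPM (-1.15, SE 0.24, adjusted p = 0.00762, and -1.43 without library 4). Igf2 was 38.4, 40.6 and 41.6 CPM, above all WT libraries (0.64, SE 0.14, adjusted p = 0.00816, and 0.75 without library 4). Mest was 656, 663 and 681 CPM, between WT library 4 and WT libraries 2 and 3, so that its log2 fold change was -0.06 (SE 0.74, adjusted p = 0.965) with library 4 and -1.35 (SE 0.11, adjusted p = 1.71e-06) without it. Grb10 changed from -0.31 (adjusted p = 0.0645) to -0.37 (adjusted p = 0.0272). Meg3 (62.0, 42.8 and 41.1 CPM) had log2 values of 0.62 and -0.01 in the same order and was called in neither. In this comparison 3 genes were called against 18.9% of all genes (10.4% higher and 8.51% lower), and 5 without library 4 against 22%.

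**Figure D3:**
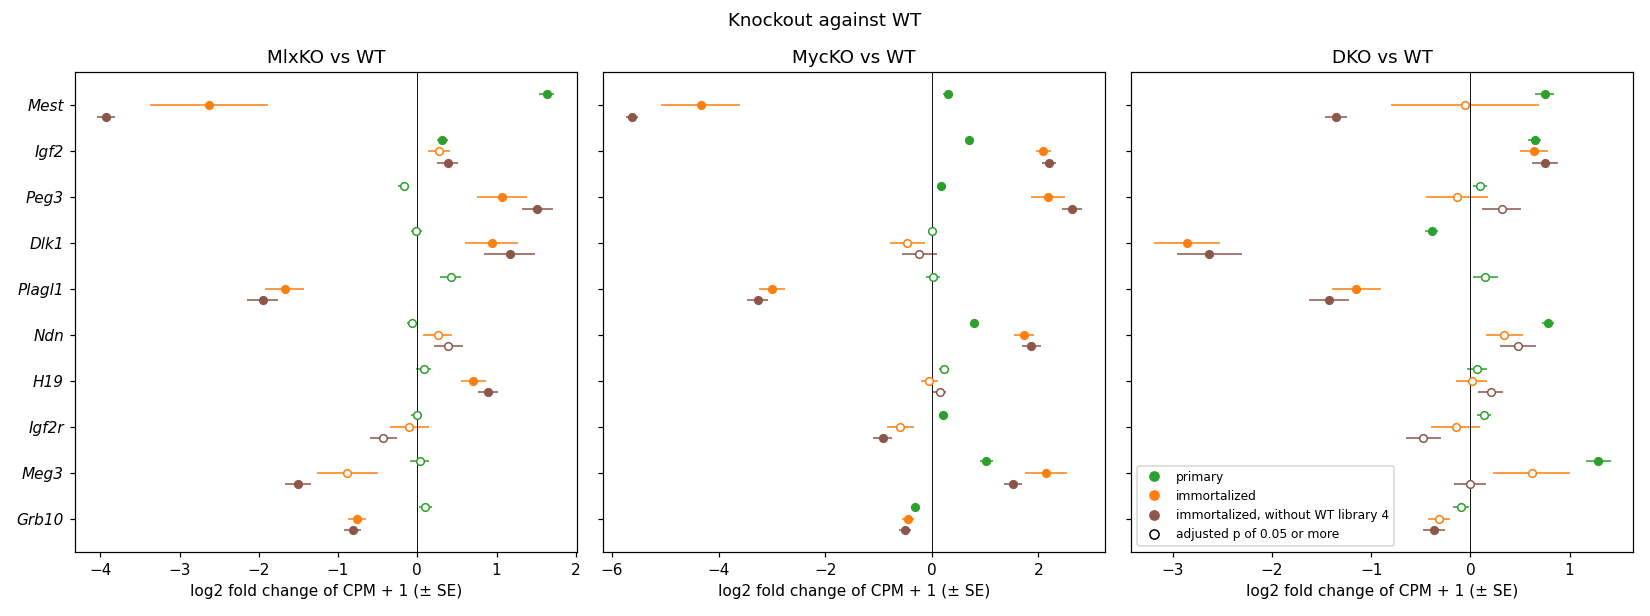
Log2 fold changes of log2(CPM + 1) against WT (horizontal axes) with their standard errors for the 10 genes in MlxKO, MycKO and DKO cells, from primary cells, from immortalized cells and from immortalized cells without WT library 4. Filled points have an adjusted p under 0.05. Igf2 lies to the right of 0 in every fit, and Mest lies to the right of 0 in primary cells (0.31 to 1.63) and to the left in immortalized MlxKO and MycKO cells.

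After immortalization, with all libraries, DKO and MycKO cells had Plagl1 lower and Igf2 higher than WT in common. Without WT library 4 they also had Mest (-1.35 in DKO and -5.63 in MycKO) and Grb10 (-0.37 and -0.50) lower in common. DKO and MycKO cells differed from each other in 7 of the 10 genes. Against MycKO, Mest was 4.28 (SE 0.74) and Plagl1 1.84 (SE 0.24) higher on the log2 scale in DKO cells, and Dlk1, Peg3, Meg3, Igf2 and Ndn were lower, with log2 fold changes of -2.40, -2.32, -1.53, -1.45 and -1.39. The adjusted p-values of these 7 genes lay between 8.46e-06 for Igf2 and 0.0103 for Meg3, and the libraries of the groups did not overlap for any of them. Of all 12880 genes tested, 6395 had no overlap between these groups. All 6 paternally expressed genes but only Meg3 of the 4 maternally expressed ones were among the 7 genes called, and 29.4% of all genes were called. H19 (log2 difference 0.06, 95% confidence interval -0.29 to 0.40) and Grb10 (0.13, -0.11 to 0.37) were not. Against MlxKO, Mest, Meg3 and Grb10 were higher by 2.57, 1.5 and 0.44, and Dlk1, Peg3 and H19 lower by log2 fold changes of -3.79, -1.20 and -0.69, with 30.1% of all genes called. In that comparison 3 of the 6 paternally and 3 of the 4 maternally expressed genes were called. The split by parental copy was thus not the same in all comparisons, and it was not tested. Mest had an adjusted p of 0.0211 there in the fit of all 4 groups, whose spread includes WT library 4, and of 2.97e-08 in a fit of DKO and MlxKO only. In the fit of all groups its call was lost without MlxKO library 6 or 7 or DKO library 14 or 15 (adjusted p from 0.0609 to 0.0697).

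The Myc-by-Mlx interaction asks whether the change in DKO cells differed from the sum of the MlxKO and MycKO changes on the log2 scale. In primary cells it was negative for Mest (-1.19, SE 0.14, adjusted p = 1.42e-05), Dlk1 (-0.38, SE 0.10, adjusted p = 0.0155) and Igf2 (-0.36, SE 0.09, adjusted p = 0.0134), all paternally expressed, and 13.5% of all genes had an interaction. For Mest and Igf2 the DKO rise was smaller than the sum of the separate rises, and for Dlk1 the DKO fall had no counterpart in either single knockout. For Ndn and Meg3 the interaction was not called (0.05 and 0.24), with confidence intervals of -0.14 to 0.24 and -0.13 to 0.61.

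In immortalized cells 8 of the 10 genes had an interaction, against 47.4% of all genes, and 9 of 10 without WT library 4, against 56.7%. It was positive for Mest (6.91, SE 1.05, adjusted p = 0.000307), Plagl1 (3.52, SE 0.34, adjusted p = 1.39e-05) and Grb10 (0.89, SE 0.16, adjusted p = 0.000747). For these 3 genes both single knockouts had fallen. DKO libraries were above both single knockouts by the direct tests for Mest, above MycKO alone for Plagl1 (0.52 against MlxKO, adjusted p = 0.122) and above MlxKO alone for Grb10 (0.13 against MycKO, adjusted p = 0.394). The interaction was negative for Peg3 (-3.38, SE 0.45), Dlk1 (-3.33, SE 0.47), Igf2 (-1.73, SE 0.19), Ndn (-1.65, SE 0.26) and H19 (-0.65, SE 0.22), with adjusted p-values between 3.83e-05 for Igf2 and 0.0312 for H19. Without library 4 the values were 8.20 for Mest, 3.79 for Plagl1, 0.95 for Grb10, -3.83 for Peg3, -3.56 for Dlk1, -1.84 for Igf2, -1.78 for Ndn and -0.84 for H19, and Igf2r was added (0.87, adjusted p = 0.00653). The interaction of H19 had adjusted p-values from 0.0524 to 0.0767 when 1 of 8 other libraries was left out (WT 2 or 3, MlxKO 6 or 7, MycKO 10 or 11, DKO 14 or 15). These values combine cells of separate floxed strains and groups with and without 4OHT treatment. Strain, 4OHT treatment and knockout cannot be told apart in them.

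Neither pair of neighbours among the 10 genes was positively correlated over all libraries. Over the 24 libraries, with log2(CPM + 1) centred within each table, Pearson's r was -0.22 between H19 and Igf2 (0.41 in primary and -0.31 in immortalized cells) and -0.37 between Dlk1 and Meg3 (-0.59 and -0.38). Among the 45 pairs r ranged from -0.94 for Mest and Peg3 to 0.92 for Igf2 and Ndn, with a median of -0.14. Igf2, Ndn and Meg3 rose and fell together in primary cells (0.86 for Igf2 and Ndn, 0.88 for Igf2 and Meg3 and 0.94 for Ndn and Meg3, 12 libraries) and in immortalized cells (0.96, 0.79 and 0.72). Mest and Plagl1 had r of 0.76 and 0.88 in primary and immortalized cells. These correlations share the 4 group means of each table and are given as a description.

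**Figure D4:**
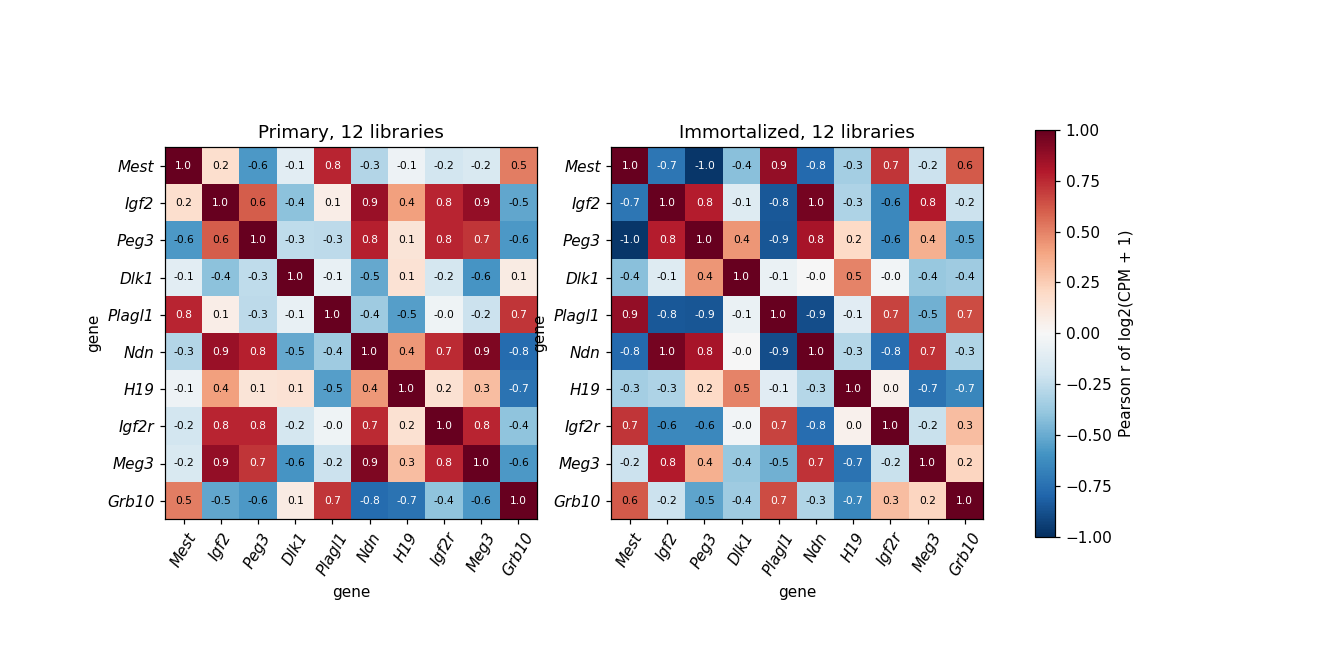
Pearson's r of log2(CPM + 1) between each pair of the 10 genes over 12 primary libraries (left) and 12 immortalized libraries (right), with red for positive and blue for negative r. Igf2, Ndn and Meg3 have r of at least 0.72 with each other in both tables, and Mest is opposite to Peg3 in both (-0.57 and -0.97).

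Neighbouring genes of the Dlk1 and Meg3 cluster followed Meg3 in part. Rian, a noncoding RNA next to Meg3, rose in primary MycKO (log2 fold change 0.22) and DKO cells (0.23) and immortalized MycKO cells (1.56) and fell in immortalized MlxKO cells (-1.84), where its libraries held 16.6 to 21.0 CPM against 40.5 to 91.2 CPM in WT. Mirg, the next noncoding RNA, rose in primary MycKO (0.80), primary DKO (0.86) and immortalized MycKO cells (1.71), and Rtl1, a retrotransposon-derived gene expressed from the paternal copy as Dlk1 is, rose in primary MycKO (0.76) and DKO cells (0.79) and was too low to test in immortalized cells. Dio3, an enzyme that inactivates thyroid hormone, rose in primary DKO cells (0.76) and fell in primary MlxKO (-0.72) and immortalized MycKO cells (-2.08). Begain was higher in primary MycKO (0.71), immortalized MlxKO (0.91) and immortalized MycKO cells (0.53). Without library 4 the immortalized calls of Rian, Mirg, Dio3 and Begain kept their signs, and Dio3 was also called in immortalized DKO (1.52) and MlxKO cells (0.69).

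Near Mest, Copg2, a coat protein gene that overlaps it on the other strand, moved in the same direction as Mest wherever it was called. It rose in primary MlxKO (0.44) and DKO cells (0.36) and fell in immortalized MlxKO (-1.08) and MycKO cells (-1.5), with 111 to 133 CPM in WT libraries 2 and 3, 68.3 CPM in library 4 and 32.8 to 36.5 CPM in MycKO. Cep41 fell in immortalized MlxKO (-0.55) and MycKO cells (-0.47), and Cpa4, a carboxypeptidase, fell in immortalized MlxKO cells (-1.59), with falls in MycKO (-0.82) and DKO (-1.19) called without library 4. Phactr2, the neighbour of Plagl1, rose in primary MycKO (0.31) and DKO cells (0.73) and fell in immortalized MlxKO (-0.76) and MycKO cells (-1.05), while Plagl1 was called in neither of the primary comparisons. Zim1, next to Peg3, rose in primary MycKO (0.85), primary DKO (0.95) and immortalized MycKO cells (1.39). Near Ndn, Snrpn rose in primary MycKO (0.48) and DKO cells (0.46), Ube3a fell in all 3 immortalized knockouts (-1.04 to -0.68), Peg12 fell in primary DKO cells (-0.33), and Mkrn3 was called in none. Without library 4, Snrpn in MlxKO (-0.65) and Peg12 in MlxKO and MycKO cells (0.67 and 0.86) were also called.

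Near H19 and Igf2, Lsp1 rose in primary MycKO (0.43) and in immortalized MlxKO (1.38) and MycKO cells (2.71), and Mrpl23 rose in immortalized MycKO cells (0.75). Cobl, next to Grb10, rose in primary MycKO (0.47) and in immortalized MycKO (2.92) and DKO cells (3.95). Airn, the antisense RNA of Igf2r, stayed between 1.44 and 3.20 CPM in all libraries and was called in none, and Usp29 was tested in primary cells only and called in none. The other 10 neighbours found, Klf14, Ins2, Igf2os, Tnnt3, Slc22a2, Slc22a3, Mas1, Ddc, Magel2 and Snurf, were too low to test in either table, which leaves 19 neighbours tested in primary and 17 in immortalized cells.

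For each of the 10 genes, the 3 genes whose centred profiles over the 24 libraries were most like it were listed. For Mest they were Dcaf6, Tenm4 and Epha7 (r of 0.95 for each), for Igf2 Galnt18 (0.96), Kif26b (0.95) and Ppm1j (0.94), and for Meg3 Adamtsl1 (0.97), Adam23 (0.95) and Ptprn (0.95). Peg3 was most like Lrrc15, Gfra1 and Thy1 (0.96 for each), Plagl1 like Rmnd5a, Lgr4 and Herpud1 (0.96 for each), and Ndn like Kctd10, Inpp5a and Pgm5 (0.95 for each). Grb10 was most like Lrrc58 (0.94), Rc3h2 (0.94) and Ppp4r1 (0.92), and Igf2r like Lamc1 (0.91), Chd2 (0.89) and Bcas3 (0.87). H19 was followed least closely, by Tmem119 (0.86), Pla2g6 (0.85) and Wipi2 (0.85). Dlk1 was most like Twnk (0.91), Tgfbi (0.90) and Mex3a (0.87), but in primary cells alone r was -0.50 for Tgfbi and -0.82 for Mex3a. For the genes listed with the other members, r in primary cells ran from 0.47 (Wipi2 with H19) to 0.97 (Inpp5a with Ndn). In immortalized cells it ran from 0.88 (Tmem119 with H19) to 0.99 (Herpud1 with Plagl1). All listed genes were picked as the highest among 11785 genes. Thy1, a fibroblast surface marker, fell as low as 10.2 CPM in immortalized cells, against at least 624 CPM in primary cells.

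Other imprinted genes were called somewhat more often than genes in general in primary cells, and in immortalized cells the order depended on WT library 4. The difference was not tested. Of 42 tested in primary cells, 7 were called in MlxKO, 24 in MycKO and 28 in DKO (16.7%, 57.1% and 66.7%, set against the 8.88%, 42.3% and 49.5% of all genes), and of 38 tested in immortalized cells 12, 18 and 7 (31.6%, 47.4% and 18.4%, against 38.9%, 48% and 18.9%). Without library 4 the immortalized counts were 18, 25 and 11 of 38, with 46.8%, 54% and 22% of all genes called. Their median log2 differences were 0.05, 0.20 and 0.22 in primary and -0.02, 0.09 and 0.02 in immortalized cells. Besides Copg2 and Rian, 5 of them were called in at least 4 of the 6 comparisons with WT. Peg10, a retrotransposon-derived gene needed in the placenta, fell in primary MycKO (-0.46) and DKO cells (-0.85) and in all 3 immortalized knockouts (-2.15 to -1.82, 127 to 206 CPM in WT and 29.9 to 47.1 CPM in the knockouts). Impact, a regulator of the stress kinase Gcn2, rose in all 3 primary knockouts (0.34 to 0.40) and fell in immortalized MlxKO (-0.73) and MycKO cells (-0.70). Dhcr7, an enzyme of cholesterol synthesis, fell in MycKO cells of both kinds (-0.66 and -0.80) and in DKO cells of both kinds (-0.99 and -0.46) and rose in primary MlxKO cells (0.32). Osbpl5 rose in MycKO (0.43 and 1.08) and DKO cells (0.34 and 0.55) of both kinds and in immortalized MlxKO cells (0.31, not called without library 4), and Herc3 fell in all 3 primary knockouts (-0.70 to -0.45) and rose in immortalized MlxKO cells (0.45).

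Of 20 factors that maintain DNA methylation or imprints, 17 were tested, and 3, 8 and 9 were called in primary MlxKO, MycKO and DKO cells (17.6%, 47.1% and 52.9%, with 8.88%, 42.3% and 49.5% of all genes called) and 5, 9 and 4 in immortalized ones (29.4%, 52.9% and 23.5%, with 38.9%, 48% and 18.9% of all genes called). Without library 4 the immortalized counts of these factors were 8, 9 and 5. Dnmt1, the maintenance methyltransferase, fell in primary MlxKO (-0.37), MycKO (-0.51) and DKO cells (-0.88) and rose in immortalized MlxKO cells (0.39). Uhrf1, which brings Dnmt1 to newly copied DNA, fell in the same 3 primary groups (-0.47, -1.0 and -1.38, from 75.8 to 90.2 CPM in WT to 29.3 to 32.5 CPM in DKO) and rose in immortalized MycKO cells (0.35). Both are cell-cycle genes, and Mki67 fell in the same primary groups. In immortalized MlxKO and MycKO cells Mki67 was not called (-0.23 and -0.17). The part of proliferation in the values of Dnmt1 and Uhrf1 was not tested. Ctcf, which binds the control region between H19 and Igf2, had log2 fold changes of 0.25, -0.17 and -0.18 in primary MlxKO, MycKO and DKO cells and fell in immortalized MlxKO (-0.41) and MycKO cells (-0.50). Smchd1, a silencing factor of some imprinted clusters, fell in MycKO and DKO primary cells (-0.44 and -0.52) and in immortalized MlxKO (-0.56) and MycKO cells (-0.42), of which the last was not called without library 4 (-0.27). Of 8 partners of the IGF2 arm tested (receptors, adaptors and RNA-binding proteins), 2, 6 and 6 were called in primary MlxKO, MycKO and DKO cells (25%, 75% and 75%) and 2, 4 and 2 in immortalized ones (25%, 50% and 25%), beside the same shares of all genes. Without library 4 the immortalized counts were 4, 5 and 4, beside 46.8%, 54% and 22% of all genes. With all libraries, 4 of the partners called were higher and 2 lower in primary MycKO and again in primary DKO cells. In primary MlxKO cells 1 was higher and 1 lower. In immortalized MlxKO, MycKO and DKO cells 1, 2 and 1 were higher and as many lower. Igf2bp3, an RNA-binding protein that binds Igf2 transcripts, fell in primary MycKO (-0.19) and DKO cells (-0.31) and in all 3 immortalized knockouts (-0.64 to -0.58). Its relative Igf2bp1 fell in all 3 primary knockouts (-0.58 to -0.31) and rose in immortalized MlxKO (0.40) and MycKO cells (0.33). Igf2bp3 and Igf2bp1 were named after their values were seen.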

How the data were processed

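The authors isolated RNA, prepared directional poly-A libraries, sequenced them and used CLC Genomics Workbench, with GRCm39 as the genome. They deposited CPM, a scaled signal whose scaling is not named in the sources used here, in a table of primary and a table of immortalized cells. Nonzero values were whole multiples of the smallest value of their library for 100% of values (within 0.01 reads), so reads were recovered for edgeR and DESeq2.

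log2(CPM + 1) was fitted with limma 3.58.1 in R 4.3.3 (trend in the prior, 4 groups of a table in 1 fit, 2-sided). A gene was tested where 3 or more of 12 libraries reached 1 CPM (13101 genes in primary and 12880 in immortalized cells), with Benjamini-Hochberg adjustment over them and a threshold of 0.05. Scaling by library totals and by median ratios, pseudocount 0.1, other filters, fits of only the groups compared, a robust prior, edgeR 4.0.16, DESeq2 1.42.0 and leaving out each library were the alternatives. An exact permutation test of 1 gene was not run, because its smallest 2-sided p with 3 libraries a group is 0.1. The fits were tested on simulated data first.

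Column names carry library numbers that the labels do not tie to replicates. The 10 genes, the gene lists and the markers were chosen with earlier results of these data known. Named were all 10 genes, the 3 most alike genes of each (symbols of predicted genes left out), neighbours, and other imprinted genes and maintenance factors called in at least 4 of 6 comparisons with WT. Of the neighbours, Zfp264 was not matched. Promoters and lengths came from canonical transcripts of GENCODE M39, which holds 41181 of the 41710 genes. Marker sums given in the report for primary cells only ranged over all libraries from 3.1 to 19.4 CPM (endothelial, Pecam1 and Cdh5 under 1), 0.102 to 19.9 (epithelial, Epcam under 1), 0.0511 to 85.6 (skeletal muscle, Myod1, Myog and Myf5 under 1) and 97.3 to 285 (neural, Elavl3 under 1). Figures were drawn with matplotlib.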

Additional observations from a re-analysis of the deposited data

Results flagged for a closer look

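The Myc-by-Mlx interaction, a test of whether the change with both genes lost differed from the sum of the separate changes, passed the threshold for 3 genes in primary cells: Mest (-1.19), Igf2 (-0.36) and Dlk1 (-0.38). In immortalized cells it passed for Mest (6.91), Igf2 (-1.73), Peg3 (-3.38), Dlk1 (-3.33), Plagl1 (3.52), Ndn (-1.65), H19 (-0.65) and Grb10 (0.89). The interactions of Igf2 and Dlk1 had the same sign in primary and immortalized cells, and that of Mest had opposite signs.

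For 3 genes every library of a knockout lay on 1 side of WT in primary cells and every library on the other side in immortalized cells. Mest in MycKO cells had a log2 fold change of 0.31 in primary and -4.34 in immortalized cells. Peg3 in MlxKO cells had -0.17 in primary cells, which did not pass the test, and 1.07 in immortalized cells. Plagl1 in MlxKO cells had 0.42 in primary cells, which did not pass the test, and -1.67 in immortalized cells. The differences between primary and immortalized cells were not tested. How many of all genes lay on opposite sides in this way was not counted. In primary MlxKO and MycKO cells, 3712 and 6297 of all 13101 genes had no overlap with WT. In immortalized MlxKO and MycKO cells, 6320 and 6576 of all 12880 genes had none. No test of outlying libraries was run in groups of 3, and immortalized WT library 4 is described in the report by its values.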

How the results depend on the processing

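No paired analysis was possible because the columns carry library numbers that the labels do not tie to replicate numbers.

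Counting only calls that also changed by 1 or more on the log2 scale lowered the number of the 10 genes called to 1 in primary MlxKO, MycKO and DKO against WT, to 0 in DKO against MycKO, to 1 in DKO against MlxKO, to 1 for the interaction and to 3 in immortalized MlxKO against WT. The other imprinted genes called became 0, 5 and 5 in primary and 6, 11 and 4 in immortalized MlxKO, MycKO and DKO. Scaling by library totals left 4 of the 10 in primary MycKO. A fit of only the groups compared left 3 of the 10 and 7 other imprinted genes in immortalized MlxKO. The share of all genes called was not computed under these settings, so these counts have no background beside them.

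Leaving out single libraries moved the number of the 10 genes called between 4 and 7 in primary MycKO against WT (4 without WT library 1), between 2 and 5 in primary DKO against MycKO (5 without MycKO library 10), between 3 and 8 in immortalized MlxKO and between 3 and 5 in immortalized DKO. The other imprinted genes called moved between 4 and 10 in primary MlxKO, between 7 and 18 in immortalized MlxKO and between 5 and 11 in immortalized DKO. The share of all genes called moves with such fits too. It was computed only without immortalized WT library 4, where it was 46.8% in immortalized MlxKO and 22% in immortalized DKO against WT.

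A change of sign occurred under these settings for values that were not called with all libraries. With library totals these were, against WT, Dlk1 (0.014) and Igf2r (0.023) in primary MlxKO, Plagl1 (-0.081) in primary MycKO, H19 (-0.019) in primary DKO and Igf2r (0.072) in immortalized MlxKO, with Ndn in primary DKO against MycKO (0.0025) and in immortalized DKO against MlxKO (-0.065). With median-ratio scaling, edgeR and DESeq2, Dlk1 in primary MycKO was 0.0075, 0.0067 and 0.0089, and H19 in primary DKO against MlxKO was 0.0080, 0.014 and 0.013. H19 in immortalized DKO was -0.0017 with edgeR and -0.016 with DESeq2.

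When single libraries were left out, the ranges that crossed 0 were as follows. In primary cells against WT, Dlk1 (-0.082 to 0.024), Igf2r (-0.051 to 0.079) and Meg3 (-0.10 to 0.19) crossed in MlxKO, Dlk1 (-0.033 to 0.020) and Plagl1 (-0.15 to 0.17) in MycKO, and H19 (-0.017 to 0.12) in DKO. Ndn in DKO against MycKO was -0.058 to 0.013 and H19 in DKO against MlxKO -0.10 to 0.044. In immortalized cells against WT, Igf2r (-0.43 to 0.10) crossed in MlxKO, H19 (-0.23 to 0.15) in MycKO, and Mest (-1.35 to 0.59), Peg3 (-0.51 to 0.31), H19 (-0.18 to 0.20), Igf2r (-0.48 to 0.052) and Meg3 (-0.0062 to 1.00) in DKO. H19 in DKO against MycKO was -0.0023 to 0.092, and in DKO against MlxKO Ndn was -0.018 to 0.14 and Igf2r -0.17 to 0.12. The cause of these changes was not tested. For the 10 genes, 1011 values kept their direction and call under the other settings, 15 gained and 19 lost a call, and with a library left out 754 kept both, 14 gained and 34 lost a call. Embryo pool and knockout cannot be told apart, 3 libraries a group limit every fit, and Dlk1 in immortalized DKO cells rests on few reads.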
